A study of Mus musculus with 4 samples.

Results

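The genes described here are those of antigen presentation by class I and class II molecules of the major histocompatibility complex (MHC) in 2 cell populations of the mouse colon crypt. They are the 40 of 14519 genes in the table whose symbol begins with H2-, the mouse name of the MHC, or that were named as partners of these molecules, which gave 22 and 18 genes. RNA was measured in Reg4+ deep crypt secretory (DCS) cells, mucus-making cells of the crypt base marked by a Reg4-dsRed reporter, and in Lgr5+ cells, which hold the stem cells and were marked by an Lgr5-GFP reporter. Both were sorted from colonic epithelium. Each population has 2 libraries, from 2 rounds of sorting and library preparation that the series describes as a biological replicate. The labels give no age, sex, strain or further allele and no number of animals, so the p-values below measure the spread between these libraries. The series compares the populations to define the expression signature of DCS cells. Its title places DCS cells as a niche for the stem cells.

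Class I molecules pair a heavy chain with beta-2-microglobulin and show peptides made by the proteasome, carried into the endoplasmic reticulum by the TAP transporter, to CD8 T cells. Class II molecules pair an alpha with a beta chain, travel with the invariant chain Cd74 to endosomes, and there take up peptides with the help of the DM molecules for display to CD4 T cells. Nearly all cells carry class I, whereas class II is best known from professional antigen-presenting cells, though epithelial cells of the gut can also make it under the control of the transactivator Ciita.

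Expression was measured by CEL-seq and is given in RPM, the gene's reads relative to all reads of the library. CEL-seq reads only transcript ends, and a long gene does not gain reads over a short one. The Lgr5+ libraries held 5205723 and 7955340 reads. Each Reg4+ DCS column averages 2 parts that had been scaled on their own, with 5523304 and 1890960 reads in replicate 1 and 3004289 and 2443971 reads in replicate 2. Reg4 stood at 6187 and 5899 RPM in Reg4+ DCS libraries, against 796 and 363 RPM in Lgr5+ libraries, and Lgr5 at 0.989 and 3.14 RPM in Reg4+ DCS libraries, against 46.5 and 48.8 RPM in Lgr5+ libraries. The summed level of 10 epithelial markers was 12484 and 12787 RPM in Reg4+ DCS libraries and 15124 and 13035 RPM in Lgr5+ libraries. The Y-linked gene Ddx3y was at 0.272 and 0.333 RPM in Reg4+ DCS libraries, against 47.1 and 58.6 RPM in Lgr5+ libraries. Xist, which is made from the inactive X chromosome of female cells, was at 121 and 130 RPM in Reg4+ DCS libraries, against 150 and 94.7 RPM in Lgr5+ libraries. The Lgr5+ libraries thus held both Y-linked RNA and Xist, the labels give no sex, and the part of sex in the results was not tested.

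The promoters of 7 genes on which the results turn are shown for GRCm38.p6 as RefSeq gives them, from 250 bases before the start of the gene to 50 after it, on the strand of the gene. They are the class II genes H2-Aa (chr17:34287774-34288073, minus strand), H2-Eb1 (chr17:34305617-34305916, plus) and H2-DMa (chr17:34122582-34122881, plus), the heavy chains H2-K1 (chr17:34000298-34000597, minus), H2-D1 (chr17:35262844-35263143, plus) and H2-M3 (chr17:37269984-37270283, plus), and the transporter Tap1 (chr17:34187306-34187605, plus). Capitals mark the Y box CTGATTGG on either strand, the classical element of MHC promoters that binds the factor NF-Y, and in H2-M3 the gamma-activated site TTCNNNGAA.
H2-Aa: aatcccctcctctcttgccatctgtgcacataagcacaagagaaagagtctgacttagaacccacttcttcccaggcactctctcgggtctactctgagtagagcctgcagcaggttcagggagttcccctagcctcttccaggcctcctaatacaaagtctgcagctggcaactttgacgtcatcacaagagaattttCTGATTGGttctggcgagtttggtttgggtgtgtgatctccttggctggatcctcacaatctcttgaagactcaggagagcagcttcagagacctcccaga
H2-Eb1: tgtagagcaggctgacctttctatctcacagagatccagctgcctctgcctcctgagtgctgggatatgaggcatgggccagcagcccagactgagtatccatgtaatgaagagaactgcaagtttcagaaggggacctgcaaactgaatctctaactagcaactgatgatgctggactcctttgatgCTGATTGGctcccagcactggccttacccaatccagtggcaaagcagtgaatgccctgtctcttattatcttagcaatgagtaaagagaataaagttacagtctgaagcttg
H2-DMa: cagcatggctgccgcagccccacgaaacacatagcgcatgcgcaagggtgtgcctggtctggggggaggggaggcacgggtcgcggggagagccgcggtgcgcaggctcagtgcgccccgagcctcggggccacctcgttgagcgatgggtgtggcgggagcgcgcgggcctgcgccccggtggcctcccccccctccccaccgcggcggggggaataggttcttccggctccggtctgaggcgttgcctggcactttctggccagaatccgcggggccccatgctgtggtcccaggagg
H2-K1: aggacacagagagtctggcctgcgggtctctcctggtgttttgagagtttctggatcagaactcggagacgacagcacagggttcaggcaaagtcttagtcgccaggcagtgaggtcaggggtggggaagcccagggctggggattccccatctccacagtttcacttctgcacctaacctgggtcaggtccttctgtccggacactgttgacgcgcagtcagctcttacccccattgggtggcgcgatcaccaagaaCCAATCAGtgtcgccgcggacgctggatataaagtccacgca
H2-D1: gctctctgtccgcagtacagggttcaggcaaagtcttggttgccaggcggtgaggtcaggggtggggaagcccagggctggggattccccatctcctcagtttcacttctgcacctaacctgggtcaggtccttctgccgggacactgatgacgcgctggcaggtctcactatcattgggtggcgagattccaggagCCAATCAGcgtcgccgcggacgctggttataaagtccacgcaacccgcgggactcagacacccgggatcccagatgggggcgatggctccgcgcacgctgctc
H2-M3: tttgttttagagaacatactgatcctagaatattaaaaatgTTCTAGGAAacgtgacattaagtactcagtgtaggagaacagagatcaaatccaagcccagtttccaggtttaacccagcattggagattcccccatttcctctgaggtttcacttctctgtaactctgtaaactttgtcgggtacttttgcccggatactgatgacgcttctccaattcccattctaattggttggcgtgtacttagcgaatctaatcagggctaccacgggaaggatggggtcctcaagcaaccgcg
Tap1: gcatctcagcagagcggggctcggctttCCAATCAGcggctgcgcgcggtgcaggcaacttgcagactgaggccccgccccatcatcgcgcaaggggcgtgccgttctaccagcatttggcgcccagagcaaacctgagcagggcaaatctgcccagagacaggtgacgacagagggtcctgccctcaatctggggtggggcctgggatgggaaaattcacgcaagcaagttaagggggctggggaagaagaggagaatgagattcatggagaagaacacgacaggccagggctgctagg
The Y box began 51 bases before the start in H2-Aa, at position -51, and at position -62 in H2-Eb1. It stood at -53 in H2-D1, at -222 in Tap1 and at 9, after the annotated start, in H2-K1, in these 3 on the opposite strand. RefSeq windows were matched for 25 of the 40 genes, some with more than 1 window. The Y box was found in 8 of 27 such windows (29.6%), against 4.1% of all 32851 windows, and its genes were H2-Aa, H2-D1, H2-Eb1, H2-K1, H2-T23, Psmb9 and Tap1. Of these, Psmb9 and Tap1 are divergent neighbours whose windows share 275 bases. The shorter CCAAT box, which the Y box contains on its other strand, was in 19 of 27 windows (70.4%), against 37.4% of all windows. The interferon-stimulated response element, GAAA repeated after 2 arbitrary bases, was in the windows of B2m, Ctss, Erap1 and H2-T23 (14.8%), against 3.44% of all, and the gamma-activated site in those of H2-M3 and Psmb8 (7.41%), against 8.3% of all. Matches on both strands were counted. Genes with a Y box were found among those lower in Reg4+ DCS cells (H2-Aa, H2-Eb1, Psmb9, Tap1) and among the heavy chains that were not lower (H2-K1, H2-D1, H2-T23).

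Among the tested genes, Cd74, H2-DMa, H2-Aa and H2-Eb1 of the class II route had the lowest log2 changes in Reg4+ DCS cells relative to Lgr5+ cells, while the classical class I heavy chains H2-K1 and H2-D1 had positive changes that did not pass. The invariant chain Cd74, the chains H2-Aa and H2-Eb1 and the peptide exchange factor H2-DMa fell, as did the immunoproteasome subunits Psmb8, Psmb9 and Psmb10, the transporter subunit Tap1 and the lipid-presenting Cd1d1. H2-M3, which presents formylated peptides, rose. Genes were tested with limma on log2(RPM + 1) where at least 2 libraries reached 5 RPM, and those with an adjusted p (Benjamini-Hochberg) under 0.05 were called. Of the 40 genes, 32 passed the filter and 12 of these were called, against 34.1% of all tested genes. Of the 32, 1 was higher in Reg4+ DCS cells, against 7.18% of all tested genes, 11 were lower, against 26.9% of all, and 20 did not pass. Cd74, H2-Aa, H2-Eb1, H2-DMa and H2-Q5 passed the filter through the Lgr5+ libraries alone, being under 5 RPM in both Reg4+ DCS libraries. Such genes had to differ to be tested, so that their number is no support for a fall of class II genes as a group. Counting complete separation, 5 of the 32 had both Reg4+ DCS libraries above both Lgr5+ libraries, against 16.1% of all tested genes, and 17 had both below, against 56.2%. In bulk libraries, fewer cells of a type and less RNA per cell cannot be told apart.

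All tested genes had a median log2 change of -0.47 on the RPM scale and 0.02 after the libraries were rescaled by the median of ratios to a typical gene. The median of the 32 antigen presentation genes was -0.56 on RPM and -0.06 after rescaling, close to that of all genes on both scales. After rescaling 8 of the 32 were called, against 28.4% of all genes. Of these, 4 were higher in Reg4+ DCS cells, against 15.6% of all genes, and 4 lower, against 12.7%. H2-M3 and Cd1d1 were called on both scales. So were Cd74, H2-DMa and H2-Eb1, which the filter admitted through the Lgr5+ libraries alone. Those for H2-Aa, H2-Q5, H2-Ke2, Psmb8, Psmb9, Psmb10 and Tap1 were made on RPM only, and H2-K1, H2-Q1 and Tap2 were called higher after rescaling only.

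**Figure D1:**
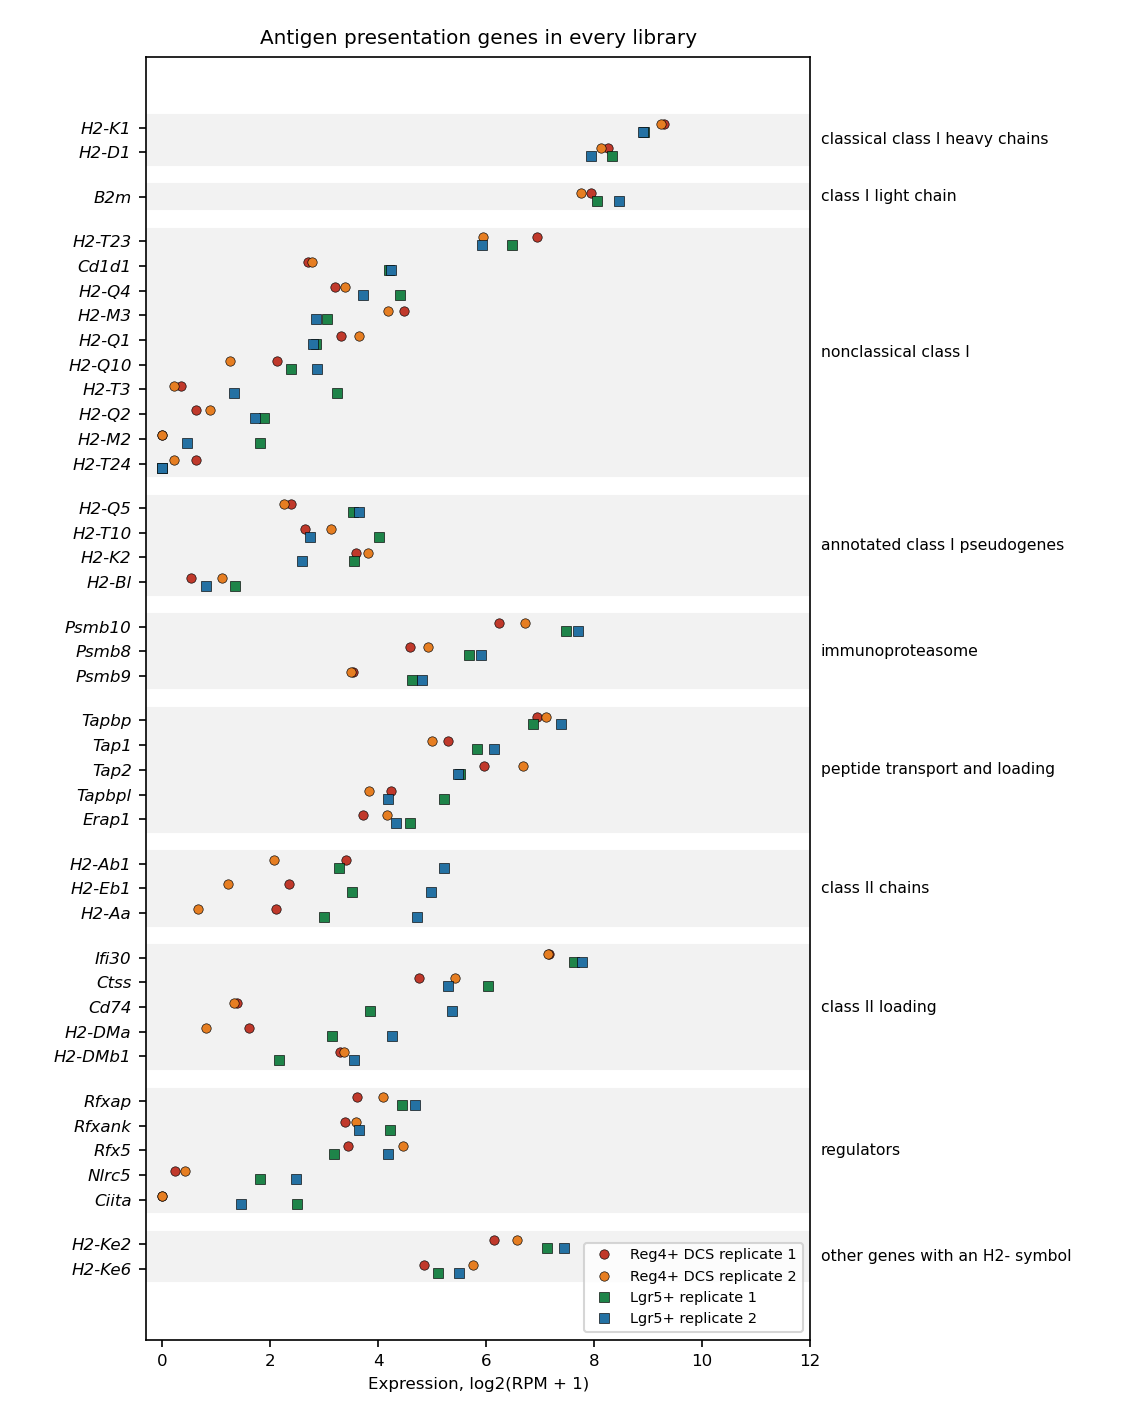
Expression of the 40 antigen presentation genes as log2(RPM + 1), with a circle for each Reg4+ DCS library and a square for each Lgr5+ library, grouped by role. H2-K1, H2-D1 and B2m sit at the right in every library, and the squares of Cd74, H2-Eb1, H2-Aa and H2-DMa lie to the right of the circles.

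**Figure D2:**
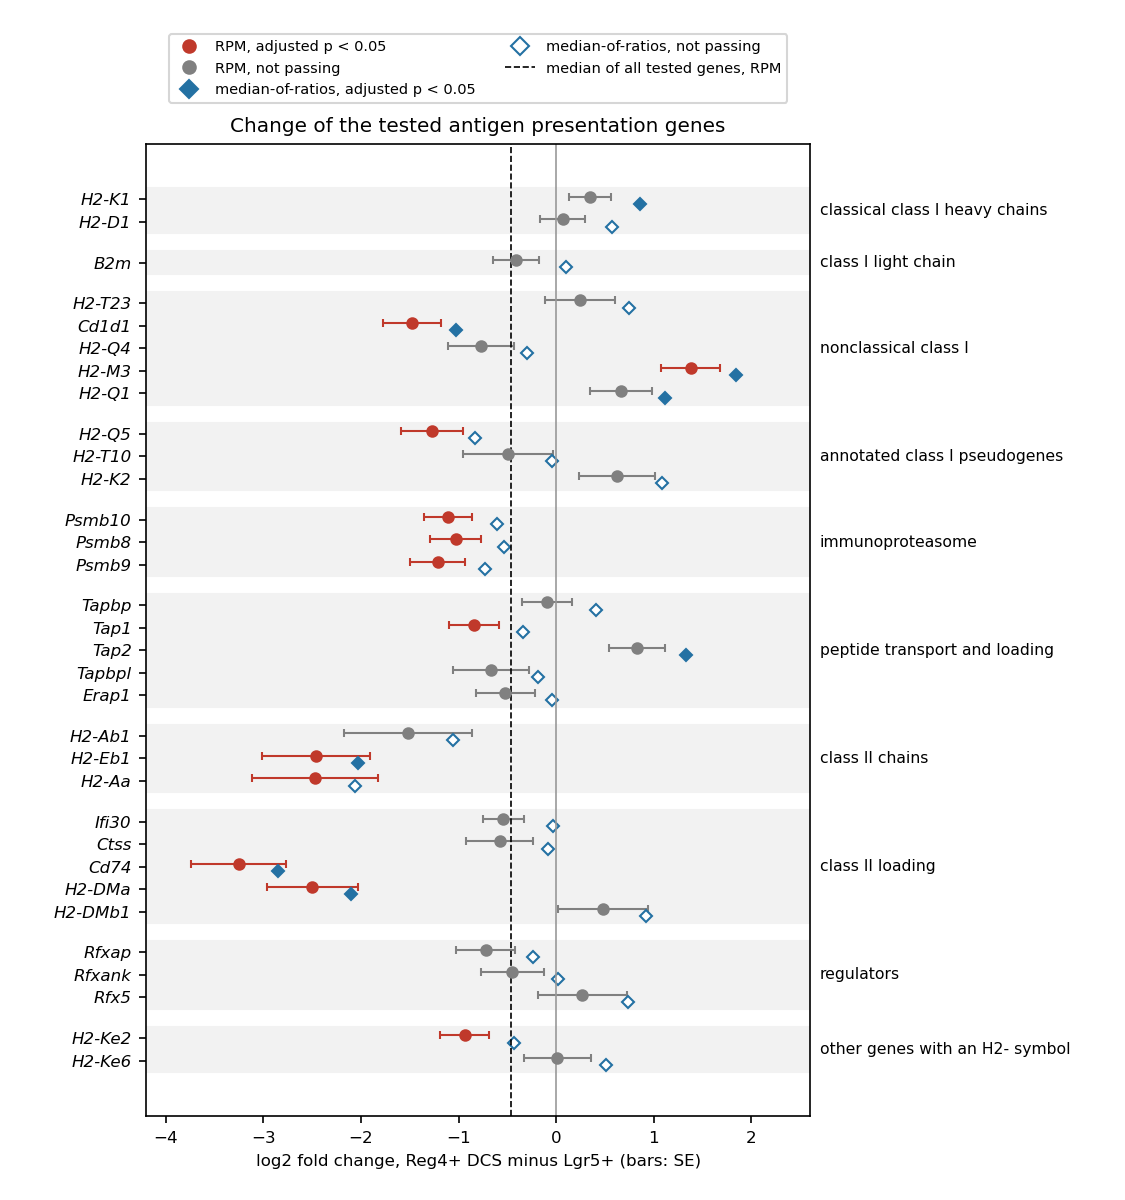
Log2 change of the 32 tested genes, Reg4+ DCS minus Lgr5+, on RPM (circles, with the standard error) and after median-of-ratios rescaling (diamonds), where filled red and filled blue mark an adjusted p under 0.05. The dashed line is the median of all tested genes on RPM, -0.47, and Cd74, H2-DMa, H2-Aa and H2-Eb1 lie farthest to its left.

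H2-K1, which encodes the classical heavy chain K, was the most abundant gene of the set in every library. It had 624 and 600.5 RPM in Reg4+ DCS libraries, against 484 and 479 RPM in Lgr5+ libraries. Both Reg4+ DCS libraries were above both Lgr5+ libraries, with a ratio of means of 1.27. The difference did not pass on RPM (log2 change 0.35, SE 0.22, limma adjusted p = 0.239) and did after rescaling (0.85, adjusted p = 0.0295). H2-D1, the D heavy chain, had 305 and 280.2 RPM in Reg4+ DCS libraries, against 319 and 244 RPM in Lgr5+ libraries. These groups overlapped, and the change was 0.07 (SE 0.23, limma adjusted p = 0.844). Together with the nearest relatives of the family, these chains share sequence near their 3′ ends. Of 50-base words in the last 500 bases of their annotated transcripts, 11.8% for H2-K1 and 18.8% for H2-D1 also occur in other genes, and the sources used here do not give how reads of such stretches were counted.

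B2m, the light chain that every class I heavy chain binds (chr2:122147686-122153083), had 244 and 215 RPM in Reg4+ DCS libraries, against 264 and 353 RPM in Lgr5+ libraries. Both Reg4+ DCS libraries were lower, but the difference did not pass (log2 change -0.41, SE 0.24, limma adjusted p = 0.208) and its sign turned after rescaling (0.10). A ratio within a library does not depend on scaling. The sum of H2-K1 and H2-D1 was 3.81 and 4.09 times B2m in Reg4+ DCS libraries, against 3.05 and 2.05 times in Lgr5+ libraries. Heavy chain relative to light chain was thus higher in each Reg4+ DCS library than in each Lgr5+ library, with the Lgr5+ libraries farther apart from each other than the Reg4+ DCS libraries.

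Among nonclassical class I genes, 1 rose and 1 fell of 5 tested, against 7.18% and 26.9% of all tested genes, and nothing is read from these counts about the group. H2-M3 had 21.1 and 17.1 RPM in Reg4+ DCS libraries, against 7.30 and 6.16 RPM in Lgr5+ libraries. The groups were apart, with a ratio of means of 2.84 (log2 change 1.38, SE 0.30, limma adjusted p = 0.0115; 1.84 and 0.00301 after rescaling). Leaving out Reg4+ DCS replicate 1 ended the call (adjusted p = 0.0762). None of the 50-base words at the ends of its transcripts occurs in another gene, unlike those of H2-K1 and H2-D1.

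Cd1d1, which presents lipids to natural killer T cells (chr3:86995834-86999441), had 5.45 and 5.81 RPM in Reg4+ DCS libraries, against 17.3 and 17.7 RPM in Lgr5+ libraries. Replicates of each population lay close together, and Lgr5+ cells had 3.11 times the level of Reg4+ DCS cells. The fall was 1.48 on the log2 scale (-1.48, SE 0.30, limma adjusted p = 0.00784), and it passed without any 1 library, with adjusted p between 0.0264 and 0.0441. H2-Q1 had 8.89 and 11.5 RPM in Reg4+ DCS libraries, against 6.15 and 5.91 RPM in Lgr5+ libraries. Its groups were apart, and it passed after rescaling only (adjusted p = 0.136 on RPM, limma, and 0.0212 rescaled).

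H2-T23, whose product Qa-1 presents leader peptides of other class I chains, had 122 and 60.6 RPM in Reg4+ DCS libraries, against 88.6 and 59.7 RPM in Lgr5+ libraries. The replicates of each population differed more than the populations did (limma adjusted p = 0.619). H2-Q4 had 8.16 and 9.40 RPM in Reg4+ DCS libraries, against 20.2 and 12.1 RPM in Lgr5+ libraries (limma adjusted p = 0.112). Both Reg4+ DCS libraries were below both Lgr5+ libraries. The other 5 nonclassical genes were under the filter. H2-T3, which encodes the thymus leukaemia antigen, a class I-like molecule known from mouse intestinal epithelium, had 0.272 and 0.166 RPM in Reg4+ DCS libraries, against 8.45 and 1.51 RPM in Lgr5+ libraries, with 3 and 1 reads against 44 and 12. It thus stood mainly in Lgr5+ replicate 1. H2-Q10, a secreted class I chain known from the liver, had 3.38 and 1.39 RPM in Reg4+ DCS libraries, against 4.23 and 6.29 RPM in Lgr5+ libraries. H2-Q2, H2-M2 and H2-T24 stayed between 0 and 2.69 RPM in every library, with H2-M2 listed at 0 in each Reg4+ DCS library and H2-T24 listed at 0 in each Lgr5+ library.

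Of the 40 genes, 4 are annotated as pseudogenes of some kind in GENCODE M21. H2-Q5, H2-T10 and H2-Bl are listed as polymorphic pseudogenes, and H2-K2 as a transcribed unprocessed pseudogene. H2-Q5 had 4.23 and 3.75 RPM in Reg4+ DCS libraries, against 10.6 and 11.6 RPM in Lgr5+ libraries. It fell on RPM (log2 change -1.27, limma adjusted p = 0.0176) and not after rescaling (-0.83, adjusted p = 0.079). Its call was lost when Reg4+ DCS replicate 1 (adjusted p = 0.0652) or replicate 2 (0.0559) was left out, and 33% of the words at its transcript ends occur in other genes. H2-T10 had 5.21 and 7.75 RPM in Reg4+ DCS libraries, against 15.2 and 5.66 RPM in Lgr5+ libraries, which overlapped. H2-K2 had 11.1 and 12.9 RPM in Reg4+ DCS libraries, against 10.8 and 5.03 RPM in Lgr5+ libraries (limma adjusted p = 0.234). H2-Bl was at or under 1.54 RPM in every library and was not tested. Reads of these 4 cannot be separated with certainty from those of related genes.

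All 3 inducible subunits of the immunoproteasome, which replace the constitutive catalytic subunits and change the peptides that are cut, fell on RPM, by about the same factor. Psmb8 had 23 and 29.5 RPM in Reg4+ DCS libraries, against 50.1 and 58.7 RPM in Lgr5+ libraries (log2 change -1.03, SE 0.26, limma adjusted p = 0.0194). Psmb9 had 10.5 and 10.2 RPM in Reg4+ DCS libraries, against 23.8 and 27.0 RPM in Lgr5+ libraries (-1.21, SE 0.28, limma adjusted p = 0.0136). Psmb10 had 74.9 and 104 RPM in Reg4+ DCS libraries, against 177 and 208 RPM in Lgr5+ libraries (-1.11, SE 0.25, limma adjusted p = 0.0124). For each subunit the highest Reg4+ DCS library was below the lowest Lgr5+ library, and Lgr5+ cells had 2.07, 2.45 and 2.15 times the mean level of Reg4+ DCS cells. After rescaling the changes were -0.53, -0.73 and -0.60, with adjusted p of 0.121, 0.0723 and 0.0776, so that none of the 3 passed. On RPM, leaving out Reg4+ DCS replicate 1 ended each call (adjusted p = 0.0988, 0.0564 and 0.0873), and leaving out Lgr5+ replicate 2 ended those of Psmb8 (0.0741) and Psmb9 (0.063).

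The constitutive counterparts fell as well on RPM, with smaller log2 changes, but not after rescaling. Psmb5, which Psmb8 replaces, had 121 and 127 RPM in Reg4+ DCS libraries, against 203 and 220.2 RPM in Lgr5+ libraries (log2 change -0.76, limma adjusted p = 0.0275). Psmb6 and Psmb7, the counterparts of Psmb9 and Psmb10, changed by -0.74 and -0.73 (limma adjusted p = 0.0335 and 0.0472). After rescaling the changes of Psmb5, Psmb6 and Psmb7 were -0.26, -0.24 and -0.22, with adjusted p of 0.407, 0.44 and 0.524. The summed level of the 3 inducible subunits was 0.383 and 0.478 of that of the 3 constitutive ones in Reg4+ DCS libraries, against 0.545 and 0.556 in Lgr5+ libraries. This ratio, which needs no scaling, was lower in each Reg4+ DCS library than in each Lgr5+ library. Psme1 and Psme2, the subunits of the interferon-inducible proteasome activator, fell too. Psme1 had 68.6 and 90.6 RPM in Reg4+ DCS libraries, against 173 and 227 RPM in Lgr5+ libraries (-1.32, limma adjusted p = 0.00663; 0.0345 after rescaling). Psme2 changed by -1.09 (limma adjusted p = 0.00857; 0.0974 after rescaling). Psmb5 was not called without any 1 library (adjusted p between 0.0624 and 0.12), and Psme1 not without Reg4+ DCS replicate 1 (0.0589).

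The subunits of the TAP transporter, which carry peptides into the endoplasmic reticulum as a heterodimer, had changes of opposite sign on both scales. Tap1 had 38.4 and 30.9 RPM in Reg4+ DCS libraries, against 55.9 and 69.8 RPM in Lgr5+ libraries. It fell on RPM (log2 change -0.84, SE 0.26, limma adjusted p = 0.0376), but not after rescaling (-0.34, adjusted p = 0.387). The call on RPM was kept without Lgr5+ replicate 1 (adjusted p = 0.0424) and lost without Lgr5+ replicate 2 (0.179), Reg4+ DCS replicate 1 (0.0759) or Reg4+ DCS replicate 2 (0.127). Tap2 had 61.3 and 102 RPM in Reg4+ DCS libraries, against 44.6 and 43.7 RPM in Lgr5+ libraries. Its change was 0.83 on RPM (SE 0.29, limma adjusted p = 0.0572) and 1.33 after rescaling (adjusted p = 0.00457). The ratio of Tap2 to Tap1 was 1.6 and 3.30 in Reg4+ DCS libraries, against 0.797 and 0.627 in Lgr5+ libraries. The order of the 2 subunits was thus opposite in the 2 populations, whatever the scaling.

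**Figure D3:**
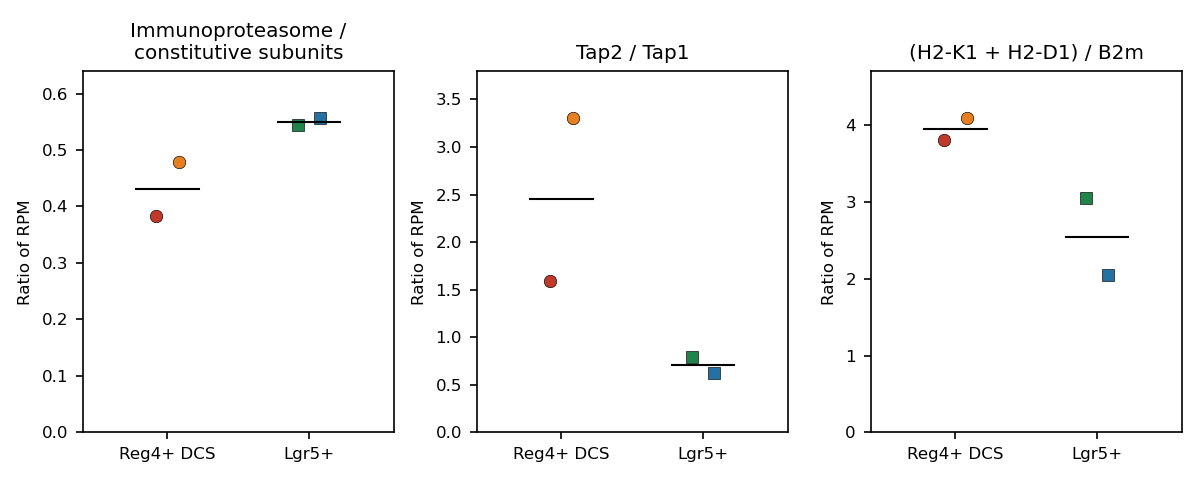
Ratios of RPM within a library, with circles for Reg4+ DCS replicates 1 (red) and 2 (orange), squares for Lgr5+ replicates 1 (green) and 2 (blue), and a bar at the mean of each population. In all 3 panels the populations do not overlap. The ratio of inducible proteasome subunits is lower and those of Tap2 to Tap1 and of heavy chains to B2m are higher in Reg4+ DCS libraries. No test was made on these ratios. On RPM, 16.1% of all tested genes had both Reg4+ DCS libraries above both Lgr5+ libraries and 56.2% had both below.

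The remaining helpers of peptide loading differed less. Tapbp, which bridges class I and the transporter, had 123 and 137 RPM in Reg4+ DCS libraries, against 116 and 166 RPM in Lgr5+ libraries (limma adjusted p = 0.79). The 2 Reg4+ DCS values lay between the Lgr5+ values. Tapbpl, its relative that edits peptides, had 17.7 and 13.2 RPM in Reg4+ DCS libraries, against 36.1 and 17.1 RPM in Lgr5+ libraries (limma adjusted p = 0.204). Erap1, the aminopeptidase that trims peptides in the endoplasmic reticulum, had 12.1 and 16.8 RPM in Reg4+ DCS libraries, against 23.1 and 19.1 RPM in Lgr5+ libraries (limma adjusted p = 0.204).

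The class II chains, Cd74 and the DM chains were at or under 9.52 RPM in Reg4+ DCS libraries and reached 40.5 RPM in Lgr5+ libraries. Cd74, the invariant chain that escorts class II to endosomes, had 1.61 and 1.52 RPM in Reg4+ DCS libraries, from 12 and 8 reads, against 13.4 and 40.5 RPM in Lgr5+ libraries, from 70 and 322 reads. It fell by 3.25 on the log2 scale (-3.25, SE 0.49, limma adjusted p = 0.00232; 0.00405 after rescaling). The mean level in Lgr5+ cells was 17.2 times that in Reg4+ DCS cells, and it was 8.59 times with Lgr5+ replicate 2 left out and 25.9 times with Lgr5+ replicate 1 left out. The log2 change was -3.28 without Reg4+ DCS replicate 1 and -3.23 without Reg4+ DCS replicate 2. Without either Lgr5+ library Cd74 fell under the filter and could not be fitted. The spread between the Lgr5+ libraries was thus not tested in this way.

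H2-Aa, the alpha chain of the I-A molecule (chr17:34282744-34287823), had 3.31 and 0.576 RPM in Reg4+ DCS libraries, from 27 and 3 reads, against 6.92 and 25.4 RPM in Lgr5+ libraries. It fell (log2 change -2.47, SE 0.65, limma adjusted p = 0.0218), with an adjusted p of 0.0568 after rescaling and 0.119 without Reg4+ DCS replicate 2. The ratio of Lgr5+ to Reg4+ DCS means was 8.31, and ran between 3.56 (Lgr5+ replicate 2 left out) and 28.1 (Reg4+ DCS replicate 1 left out). H2-Ab1, the beta chain of the same molecule (chr17:34257689-34269419), had 9.52 and 3.17 RPM in Reg4+ DCS libraries, against 8.64 and 36.3 RPM in Lgr5+ libraries. Here the groups overlapped, since Reg4+ DCS replicate 1 was above Lgr5+ replicate 1, and the difference did not pass (-1.52, SE 0.66, limma adjusted p = 0.105). It passed without Lgr5+ replicate 1 (-2.49, adjusted p = 0.00033).

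H2-Eb1, the beta chain of the I-E molecule (chr17:34305867-34316674), had 4.11 and 1.32 RPM in Reg4+ DCS libraries, against 10.4 and 30.5 RPM in Lgr5+ libraries. It fell on both scales (log2 change -2.46, SE 0.56, limma adjusted p = 0.0125; 0.0354 after rescaling) and missed the threshold without Reg4+ DCS replicate 2 (adjusted p = 0.0743). Lgr5+ cells had 7.53 times the level of Reg4+ DCS cells, 3.82 times with Lgr5+ replicate 2 left out and 15.5 times with Reg4+ DCS replicate 1 left out. No 50-base word at the transcript ends of H2-Aa, H2-Ab1, H2-Eb1 or Cd74 occurs in another gene.

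The 2 chains of the DM molecule, which exchanges peptides on class II, had different levels and changes. H2-DMa, the alpha chain, had 2.05 and 0.742 RPM in Reg4+ DCS libraries, from 15 and 4 reads, against 7.88 and 18.1 RPM in Lgr5+ libraries. It fell on both scales (log2 change -2.5, SE 0.47, limma adjusted p = 0.00601; 0.0155 after rescaling), and Lgr5+ cells had 9.29 times the level of Reg4+ DCS cells, 5.63 times with Lgr5+ replicate 2 left out and 17.5 times with Reg4+ DCS replicate 1 left out. H2-DMb1, a beta chain, had 8.82 and 9.33 RPM in Reg4+ DCS libraries, against 3.46 and 10.7 RPM in Lgr5+ libraries. Its groups overlapped (limma adjusted p = 0.435), and 27.4% of its words at the transcript ends are shared, most with H2-DMb2. The ratio of H2-DMb1 to H2-DMa was 4.30 and 12.6 in Reg4+ DCS libraries, against 0.439 and 0.590 in Lgr5+ libraries. This ratio was not tested, and in Reg4+ DCS libraries it rests on 15 and 4 reads of H2-DMa. For H2-DMb1, Reg4+ DCS replicate 1 averages parts of 13.9 and 3.70 RPM, from 77 and 7 reads.

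Ifi30 and Ctss, endosomal proteins that act on antigens, did not pass. Ifi30, a thiol reductase that opens disulphide bonds of antigens, had 143 and 141 RPM in Reg4+ DCS libraries, against 198 and 217 RPM in Lgr5+ libraries (log2 change -0.54, SE 0.21, limma adjusted p = 0.0814). Its groups were apart, and its change was close to the median of all genes. Ctss, the protease that makes the last cuts of the invariant chain, had 25.9 and 42.0 RPM in Reg4+ DCS libraries, against 64.7 and 38.3 RPM in Lgr5+ libraries, with overlap (limma adjusted p = 0.216).

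**Figure D4:**
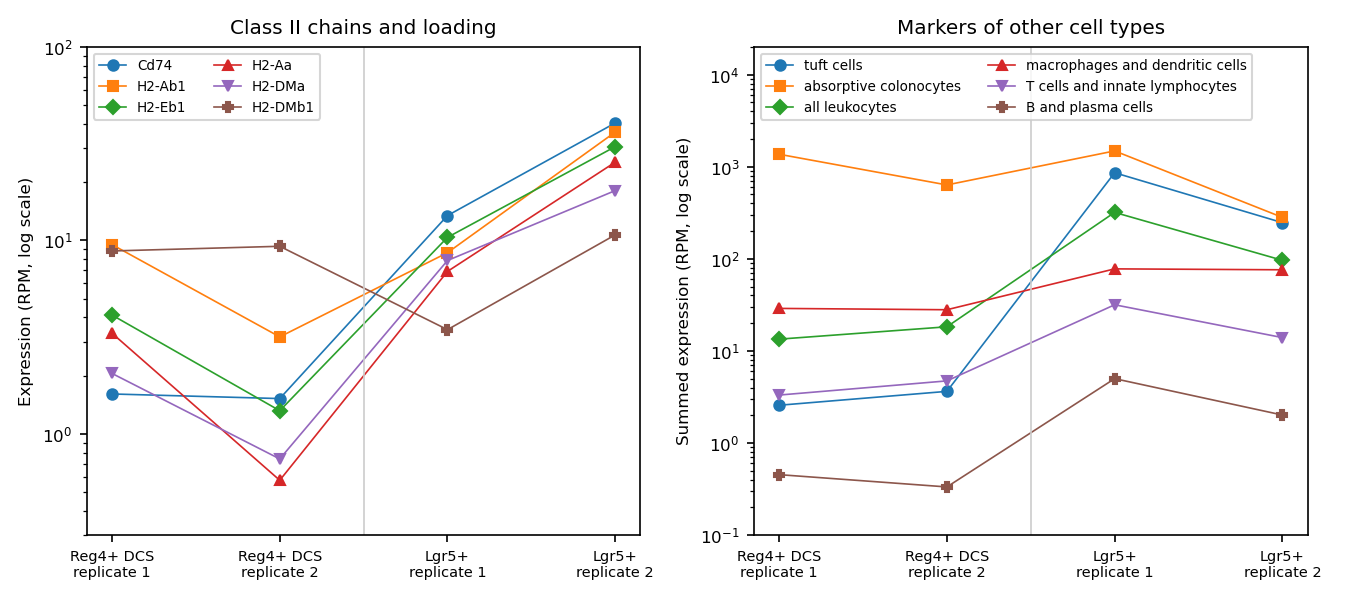
Class II chains and partners (left) and the summed level of marker lists of other cell types (right) in each library, both in RPM on a log scale, with lines that only join the values of 1 gene or list. The class II genes are highest in Lgr5+ replicate 2. The summed tuft cell, leukocyte, colonocyte, T cell and B cell markers are higher in Lgr5+ replicate 1 than in Lgr5+ replicate 2. Those of macrophages and dendritic cells are at 77.8 and 76.0 RPM in Lgr5+ replicates 1 and 2. The part of these cells in the class II levels was not tested.

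The class II chains, Cd74 and the DM chains also set the 2 Lgr5+ libraries apart from each other. The level in Lgr5+ replicate 2 was 4.20 times that in Lgr5+ replicate 1 for H2-Ab1, 3.67 times for H2-Aa, 3.09 times for H2-DMb1, 3.01 times for Cd74 and 2.94 times for H2-Eb1. For H2-DMa it was 2.30 times. A ratio above 2.5, a limit chosen after these values were seen, was found in 29 of 10182 tested genes (0.285%), of which 5 were antigen presentation genes. The median ratio of all tested genes was 0.979, and the middle 90% lay between 0.454 and 1.54. The class I genes H2-K1 (0.989), H2-D1 (0.765), B2m (1.34) and Tapbp (1.44) lay within that range. Other genes of the class II route did not share the difference, with 0.592 for Ctss, 1.10 for Ifi30 and 0.382 for Ciita. The Reg4+ DCS libraries differed in the class II genes as well, with replicate 1 at 5.76 times replicate 2 for H2-Aa, 3.12 times for H2-Eb1, 3.0 times for H2-Ab1 and 2.77 times for H2-DMa, but 1.06 times for Cd74.

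The summed levels of leukocyte and of tuft cell markers moved with the population beside these values. Ptprc, the pan-leukocyte CD45, stood at 0 in both Reg4+ DCS libraries, against 40.1 and 9.55 RPM in Lgr5+ libraries. Of 10 listed leukocyte markers, 8 were measured. They summed to 13.4 and 18.3 RPM in Reg4+ DCS libraries, against 319 and 96.4 RPM in Lgr5+ libraries, mostly from Ptpn6 and Rac2. Coro1a, Cd53, Arhgdib and Laptm5 were lower in both Reg4+ DCS libraries, but had at most 2.11 RPM in any library. For Cytip the groups overlapped. The leukocyte sum is thus not read as an amount of leukocytes. Tuft cell markers, with 7 of 8 genes measured, summed to 2.57 and 3.63 RPM in Reg4+ DCS libraries, against 861 and 247 RPM in Lgr5+ libraries. Both sums were higher in Lgr5+ replicate 1 than in Lgr5+ replicate 2. The ratio of Lgr5+ replicate 2 to Lgr5+ replicate 1 was 0.238 for Ptprc, 0.293 for Rac2 and 0.323 for Ptpn6. Over the tuft cell markers this ratio ran from 0.217 (Ptgs1) to 0.451 (Ltc4s), and over the colonocyte markers from 0.146 (Aqp8) to 0.325 (Fabp2). Which cells the RNA of Ptprc, Rac2 and Ptpn6 came from was not tested. In both Reg4+ DCS libraries, 4 of the tuft cell and 4 of the leukocyte markers were listed at 0. Here and below, such a 0 is read only as a listing, since 1641 genes were at 0 in both.

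Of 20 macrophage and dendritic cell markers 8 had values, summing to 28.9 and 28.0 RPM in Reg4+ DCS libraries, against 77.8 and 76.0 RPM in Lgr5+ libraries. Nearly all of that was Cd14, at 25.0 and 23.3 RPM in Reg4+ DCS libraries, against 68.8 and 71.1 RPM in Lgr5+ libraries. Cd68 was at 1.18 and 0.832 RPM in Reg4+ DCS libraries, against 2.31 and 2.26 RPM in Lgr5+ libraries. Tyrobp was listed at 0 in Reg4+ DCS libraries, against 0.192 and 0.126 RPM in Lgr5+ libraries, and Fcer1g was also lower in both Reg4+ DCS libraries. Ccr7 went the other way, at 0.264 and 0.205 RPM in Reg4+ DCS libraries and at 0 in both Lgr5+ libraries. For Itgam, Cx3cr1 and Xcr1 the groups overlapped. Xcr1 had 1.52 and 2.74 RPM in Reg4+ DCS libraries, against 3.84 and 1.51 RPM in Lgr5+ libraries. B and plasma cell markers, with 4 of 10 measured, summed to 0.453 and 0.333 RPM in Reg4+ DCS libraries, against 4.99 and 2.01 RPM in Lgr5+ libraries, among them Cd79a at 0 in both Reg4+ DCS libraries, against 0.961 and 1.26 RPM in Lgr5+ libraries. T cell and innate lymphocyte markers, with 7 of 14 measured, summed to 3.31 and 4.72 RPM in Reg4+ DCS libraries, against 31.7 and 14.0 RPM in Lgr5+ libraries, and Cd3e stood at 0 in both Reg4+ DCS libraries. The sum of each of these lists was higher in both Lgr5+ libraries, for macrophages and dendritic cells mostly through Cd14. Absorptive colonocyte markers, with 7 of 8 measured, summed to 1367 and 635 RPM in Reg4+ DCS libraries, against 1487 and 282 RPM in Lgr5+ libraries, most of it Ceacam1 at 1273 and 592 RPM in Reg4+ DCS libraries, against 748 and 132 RPM in Lgr5+ libraries (limma adjusted p = 0.141). The other 6 were lower in both Reg4+ DCS libraries than in Lgr5+ replicate 1. Of the 6 colonocyte markers tested, Car1, Slc26a3 and Fabp2 fell and 0 rose, against 26.9% and 7.18% of all tested genes. Car1 had 25.4 and 12.5 RPM in Reg4+ DCS libraries, against 357 and 56.1 RPM in Lgr5+ libraries (log2 change -2.92, limma adjusted p = 0.0191). The 3 measured of 10 endothelial and stromal markers summed to 0.264 and 0.614 RPM in Reg4+ DCS libraries, against 5.19 and 4.40 RPM in Lgr5+ libraries. The part of these cells in the class II and class I results was not tested.

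The transactivators of both classes were under the filter, with few or no reads in the Reg4+ DCS libraries. Ciita, the switch of class II transcription, was listed at 0 in each Reg4+ DCS library and had 4.61 and 1.76 RPM in Lgr5+ libraries, from 24 and 14 reads. Its order between the Lgr5+ libraries was opposite to that of the class II chains. Nlrc5, its class I counterpart, had 0.181 and 0.333 RPM in Reg4+ DCS libraries, from 2 reads each, against 2.5 and 4.53 RPM in Lgr5+ libraries, from 13 and 36 reads. A 0 in the Reg4+ DCS columns is read here only as a listing, since 1641 genes were at 0 in both, out of 1645 in each, among them a gene with 1641 reads in the Lgr5+ libraries. In the second part of these columns Nlrc5, H2-Q2, H2-T3 and H2-T24 were at 0 while above 0 in the first, so that their means carry that 0.

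The RFX subunits, which bind the X box of MHC promoters, did not pass, by limma or by edgeR on the recovered reads, and 1 of 3 had an unadjusted p under 0.05. Rfx5 had 9.91 and 21 RPM in Reg4+ DCS libraries, against 8.07 and 17.2 RPM in Lgr5+ libraries. It differed more between replicates than between populations (limma adjusted p = 0.666). Rfxank had 9.47 and 11 RPM in Reg4+ DCS libraries, against 17.7 and 11.6 RPM in Lgr5+ libraries (limma adjusted p = 0.304). Rfxap had 11.1 and 16 RPM in Reg4+ DCS libraries, against 20.7 and 24.8 RPM in Lgr5+ libraries, with the groups apart (log2 change -0.72, limma adjusted p = 0.0981).

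The symbols H2-Ke2 and H2-Ke6 belong to the MHC region and not to its presenting molecules. H2-Ke2, now named Pfdn6, a subunit of the chaperone prefoldin, had 69.3 and 94.0 RPM in Reg4+ DCS libraries, against 139 and 174 RPM in Lgr5+ libraries (log2 change -0.94, limma adjusted p = 0.0241; 0.194 after rescaling). It was not called without Reg4+ DCS replicate 1 (adjusted p = 0.141) or Lgr5+ replicate 2 (0.0913). H2-Ke6, a hydroxysteroid dehydrogenase, had 28.0 and 53.3 RPM in Reg4+ DCS libraries, against 33.4 and 43.9 RPM in Lgr5+ libraries (limma adjusted p = 0.98), and 69.1% of the words at its transcript ends are shared with other genes.

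By position, 27 of the 40 genes lie on chromosome 17 and 13 on 7 other chromosomes, and only some neighbours moved together. H2-Ab1, H2-Aa and H2-Eb1 follow each other and had changes of -1.52, -2.47 and -2.46, of which that of H2-Ab1 did not pass. Psmb9, Tap1, Psmb8 and Tap2 follow each other within chr17:34181987-34216321. The first 3 fell on RPM, while Tap2, the last, had a positive change. H2-DMa and H2-DMb1 are likewise close, and only H2-DMa passed. Outside the cluster, Cd74 on chromosome 18 and Psmb10 on chromosome 8 fell with their partners on chromosome 17.

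**Figure D5:**
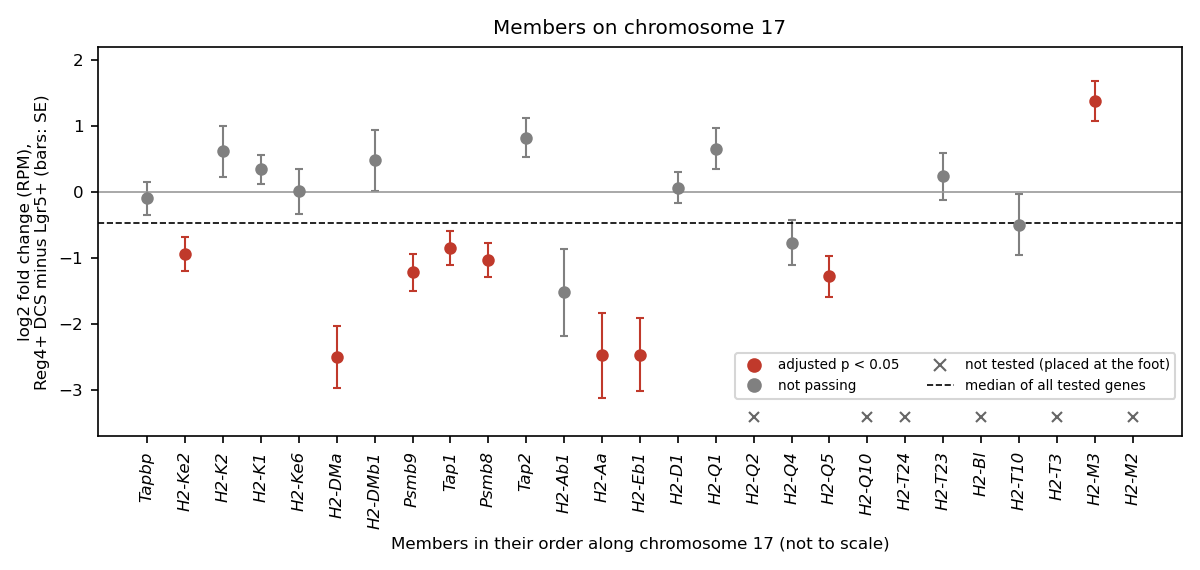
Log2 change on RPM, Reg4+ DCS minus Lgr5+, with the standard error, for the genes on chromosome 17 in their order, not to scale, where red marks an adjusted p under 0.05 and crosses mark genes not tested. The 21 tested genes hold changes of both signs next to each other, from -2.5 for H2-DMa to 1.38 for H2-M3, and the dashed line at -0.47 is the median of all tested genes.

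Other genes of the pathway came from 5 lists that do not overlap with the 40 genes. Together 60 of their genes were tested, and 9 rose and 13 fell on RPM, against 7.18% and 26.9% of all genes. After rescaling 18 rose and 3 fell, against 15.6% and 12.7% of all genes. These shares, with 13.7% and 13.4% for edgeR, also apply to the counts of each list below. Of 18 peptide loading and trimming partners, 7 rose and 4 fell on RPM, whereas 11 rose and 1 fell after rescaling and 9 and 1 with edgeR. The largest rises were in folding enzymes of the endoplasmic reticulum. Pdia6 had 874 and 821 RPM in Reg4+ DCS libraries, against 245 and 272 RPM in Lgr5+ libraries (log2 change 1.71, limma adjusted p = 0.00118). Pdia3, the disulphide isomerase of the class I loading complex, had 364 and 516 RPM in Reg4+ DCS libraries, against 136 and 134 RPM in Lgr5+ libraries (1.67, limma adjusted p = 0.00203). The chaperone Hspa5 had 1131 and 1161 RPM in Reg4+ DCS libraries, against 406 and 367 RPM in Lgr5+ libraries (1.57, limma adjusted p = 0.00183). These 3 serve secreted proteins in general, and all 3 were more than 2.5 times as high in Reg4+ DCS cells.

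Of 7 constitutive counterparts and activators of the immunoproteasome, 5 fell on RPM and 0 rose, the same as at an unadjusted p under 0.05. After rescaling and with edgeR, 1 of the 7 fell. Of 12 proteases and lysosomal partners of the class II route, 2 rose and 1 fell on RPM, whereas 6 rose and 0 fell after rescaling and 3 and 0 with edgeR (limma and edgeR adjusted p; 3 and 2 at an unadjusted p under 0.05 on RPM). Cd63, a tetraspanin of endosomes, had 1690.1 and 2146 RPM in Reg4+ DCS libraries, against 975 and 916 RPM in Lgr5+ libraries (log2 change 1.01, limma adjusted p = 0.0179). Cathepsin L, Ctsl, which cuts the invariant chain, had 103 and 132 RPM in Reg4+ DCS libraries, against 69.9 and 61.2 RPM in Lgr5+ libraries (0.83, limma adjusted p = 0.0306). Ctsb, cathepsin B, fell on RPM, with 196 and 215 RPM in Reg4+ DCS libraries, against 390.0 and 410.2 RPM in Lgr5+ libraries (-0.96, limma adjusted p = 0.012). It was not called after rescaling (-0.45, adjusted p = 0.155) or with edgeR (adjusted p = 0.11). Without Reg4+ DCS replicate 1 the adjusted p was 0.0741 for Cd63, 0.0615 for Ctsl and 0.0851 for Ctsb. Cd63 and Ctsl were also not called without Reg4+ DCS replicate 2 (0.117 and 0.12), and Ctsl not without Lgr5+ replicate 2 (0.111).

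Of 19 tested regulators of MHC genes, 3 fell and 0 rose on RPM (limma), against 26.9% and 7.18% of all tested genes. At an unadjusted p under 0.05 (limma) these were 4 and 0. After rescaling 1 rose and 1 fell. Irf8, an interferon regulatory factor, had 25.5 and 37.0 RPM in Reg4+ DCS libraries, against 89.1 and 71.0 RPM in Lgr5+ libraries (log2 change -1.35, limma adjusted p = 0.00851; 0.0259 after rescaling). Nfya, the NF-Y subunit that gives the complex its sequence specificity, had 8.23 and 9.25 RPM in Reg4+ DCS libraries, against 21.1 and 17.6 RPM in Lgr5+ libraries (-1.06, limma adjusted p = 0.0272). Creb1, which binds the X2 box, had 19.0 and 22.7 RPM in Reg4+ DCS libraries, against 35.3 and 39.1 RPM in Lgr5+ libraries (-0.81, limma adjusted p = 0.0448). The last 2 did not pass after rescaling or without any 1 library (adjusted p between 0.0564 and 0.141 for Nfya, 0.0644 and 0.171 for Creb1), and Irf8 did not pass without Reg4+ DCS replicate 1 (0.0603). Of class I-like molecules and co-signalling ligands, 11 of 17 had values and 4 were tested, of which 0 passed with limma, after rescaling or with edgeR, and 1 was lower at an unadjusted p under 0.05.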

How the data were processed

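RNA was measured in 4 CEL-seq libraries of sorted mouse colonic cells, with 2 for each population, as the labels' protocols describe. Alignment with BWA (0.6.2-r126) to mm10 is named in the submitters' processing notes. The counting step, its annotation and any use of molecular identifiers were not given in the sources used here.

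The authors deposited 1 table of RPM per gene. In both Lgr5+ columns, 100% of the values divided by the RPM of a single read gave a whole number to within 0.01. Those of the Reg4+ DCS columns were means of 2 such parts, decoded uniquely for all but 7 and 129 genes and for all 40 antigen presentation genes. In a simulated column of this form, 99.94% of genes were decoded uniquely, 100% of them correctly.

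limma 3.58.1 in R 4.3.3 (lmFit, eBayes with a trend) was fitted over all 10183 genes with at least 5 RPM in at least 2 libraries, on log2(RPM + 1), which understates the change of low genes, with group as the only term. Fold changes are Reg4+ DCS minus Lgr5+, and ratios in the text are of mean RPM. Of all genes tested, 34.1% were called. In data simulated for this comparison on 10025 genes, it recovered 50.7% of 2-fold and 100% of 4-fold and 8-fold changes, with 7 false calls. There, only genes with a mean above the filter limit were changed, all genes had the same dispersion, and no shift of all genes was added. The recovery thus does not carry over to genes of few reads or of a wide spread between replicates, such as the class II genes. edgeR 4.0.16 was run on the recovered reads. Other alternatives were rescaling by the median of ratios (factors 0.767, 0.921, 1.23 and 1.16), other pseudocounts and filters, no trend, the replicate number as a term, leaving out 1 library, and each part of the Reg4+ DCS columns. Positions and pseudogene status come from GENCODE M21 (GRCm38), to which all 40 symbols were matched, 1 through a synonym. Every gene of the set is reported, and from each pathway list the 3 called genes with the largest absolute change. The gene set, the lists and these rules were chosen with earlier results of these data known.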

Additional observations from a re-analysis of the deposited data

How the results depend on the processing

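Rescaling by the median of ratios gave 1591 genes higher and 1297 lower in Reg4+ DCS cells of all tested, 4 higher and 4 lower antigen presentation genes, and 18 higher and 3 lower genes of the other pathway lists. edgeR on the recovered reads, chosen after seeing the data, gave 1394 and 1362, then 4 and 4, and for the pathway lists 12 and 3. Leaving out 1 library gave 349 to 706 genes higher and 1060 to 2288 lower over all genes, 1 higher and 3 to 7 lower antigen presentation genes, and 4 to 8 higher and 1 to 8 lower pathway genes. There, the lone library of a population is assumed to vary like the others. The 1 higher antigen presentation gene was H2-M3, except without Reg4+ DCS replicate 1, where it was Tap2 (log2 change 1.19). Tapbpl was among the lower genes only without Lgr5+ replicate 2 (log2 change -1.19). Without either Lgr5+ library, Cd74, H2-Aa, H2-Eb1, H2-DMa and H2-Q5 fell under the filter and could not be fitted, which leaves 27 genes. With a filter of 1 RPM, 15 of 38 antigen presentation genes were lower, against 3196 of 12244 over all genes. The 4 added, Ciita, Nlrc5, H2-Q2 and H2-T3, passed it through the Lgr5+ libraries alone, and nothing is read from their calls.

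The replicate numbers were not shown to pair the libraries, since the series does not say that a number marks a shared round of sorting: deviations of same-numbered libraries from their group means had a correlation of 0.212 across 10183 genes, which are not independent replicates. With the replicate block, 2 antigen presentation genes were higher and 12 lower, with H2-Ab1 (adjusted p = 0.00775) and Tap2 (adjusted p = 0.0152) added (limma), and 910 and 3534 of all genes. The second part of the Reg4+ DCS columns gave 2 higher, with Tap2 added.

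Signs that turned were all of genes that did not pass on RPM. They were B2m (0.10), Rfxank (0.022) and Tapbp (0.41) after rescaling, B2m (0.089) and Tapbp (0.34) with edgeR, and H2-D1 (-0.030), H2-DMb1 (-0.074) and H2-Ke6 (-0.41) with the second part. Without 1 library, log2 changes ranged from -0.13 to 0.26 for H2-D1, -0.21 to 1.18 for H2-DMb1, -0.44 to 0.47 for H2-Ke6, -1.13 to 0.15 for H2-T10, -0.26 to 0.74 for H2-T23, -0.24 to 0.77 for Rfx5 and -0.35 to 0.17 for Tapbp. The cause of these changes was not tested. Genes of a few reads, such as Ciita, Nlrc5 and H2-T3, are limited by depth.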

Other observations

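The 29 genes more than 2.5 times higher in Lgr5+ replicate 2 than in Lgr5+ replicate 1 included 13 that were also more than 2.5 times above both Reg4+ DCS libraries in Lgr5+ replicate 2. Of these 13, 4 were H2-Aa, H2-Ab1, H2-Eb1 and Cd74. The following genes among the others were chosen after their values were seen. Lpo, a lactoperoxidase, had 58.9 and 38.1 RPM in Reg4+ DCS libraries, against 26.9 and 219 RPM in Lgr5+ libraries. Ifi27l2a, an interferon-induced gene, had 6.45 and 2.56 RPM in Reg4+ DCS libraries, against 6.34 and 17.3 RPM in Lgr5+ libraries. The defensin Defb45 was listed at 0 in each Reg4+ DCS library, against 9.03 and 24.4 RPM in Lgr5+ libraries. Nxpe4 had 5.42 and 3.79 RPM in Reg4+ DCS libraries, against 22.1 and 98.6 RPM in Lgr5+ libraries. Mid1 had 28.1 and 58.9 RPM in Reg4+ DCS libraries, against 73.0 and 593 RPM in Lgr5+ libraries, and Erdr1 had 146 and 895 RPM in Reg4+ DCS libraries, against 914 and 2302 RPM in Lgr5+ libraries.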
